A study of Xenopus laevis with 13 samples.

Results

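The 200 probes described here were those whose normalized signal differed most, upwards, between the unfertilized egg of Xenopus laevis and the two-cell stage. They were taken from 25367 probes that the scanner software called well above background, meaning that the spot stood clearly over its local background, in both the egg and the two-cell embryo, out of 43803 non-control probes on the array. Normalized signal means the log2 processed intensity of a probe minus the 75th percentile of its array on the same scale, so that 0 is the level of the 75th percentile and a difference of 1 is a 2-fold difference. Because the egg and two-cell arrays chose the members, the size of that first difference is given below as a description, without a test, and nothing is drawn from it.

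The study followed gene expression through embryogenesis of Xenopus laevis, the African clawed frog, on 13 one-color arrays, 1 of intact unfertilized eggs and the other 12 of whole embryos, 1 per stage: the two-cell stage, the 16-cell stage, the blastula stages 8 and 9, the gastrula stages 10.5 and 12, and stages 15, 20, 25, 30, 35 and 40, which run from the neurula to the tadpole. Whole eggs and whole embryos were dejellied, the embryos were raised in dilute Steinberg's solution and staged by the Nieuwkoop and Faber table, and the labels name no strain, genotype or treatment that would separate the stages. The stage names were taken from the developmental stage label, with which the titles agree. For 8 of the 13 samples the description names another stage than the title and was not used. No stage had a replicate array, so no difference between single stages could be tested, and in whole embryos fewer cells of a type and less RNA per cell cannot be told apart.

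In the frog, the fertilized egg divides on RNA that the mother stored in the oocyte, and the embryo's own genes are largely silent until the midblastula transition. Over that time the stored messengers are regulated mainly by the length of their poly(A) tails, which the cytoplasm lengthens on some messengers and shortens on others, and by degradation. The labeling kit used for these arrays primes from the poly(A) tail, so in these values a longer tail and more RNA cannot be told apart.

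The deposited files identify each probe by an accession and do not pair it with a gene name. The array carries 28256 different accessions and 0 of them had a match among the reference genes, so 18 lists of genes, among them maternal regulators and markers of oocyte, muscle and neural tissue, matched 0 probes. The labeled tissue could therefore not be checked against markers, and the members are described below by their levels, with 4 of them named by accession. Of the accessions in a table of glycogenes given with the study, 2 matched an accession on the array by name, and 0 of them belonged to a member. The paper reports array probes for more glycogenes than that, so this match cannot show whether members are glycogenes.

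The egg array had the lowest level of the 13 arrays. Its 75th percentile of processed signal was 942, against 1122 to 2008 on the 12 embryo arrays, and 59.0% of its probes were well above background, the lowest share of the 13 arrays. The percentile was thus 1.09 higher (log2) on the two-cell array than on the egg array, whereas the 7 spike-in probes, for added control RNA, differed by -0.54. Spike-in scaling takes that RNA as added in equal amount, which was not tested. Before any scaling the median egg to two-cell difference of the members was 5.08, with spike-in scaling it was 5.61, and with the scaling used here it was 3.98. The order of the probes, and with it the choice of the 200, is the same under each of these scalings, because each of them moves all probes of an array by 1 amount.

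The members went from dim spots to bright ones. In the egg their processed signal lay between 23.7 and 1095, with a median of 75.6, whereas the median of all 25367 eligible probes was 627. On the two-cell array the same members lay between 619 and 58184, with a median of 3243, against 1407 for all eligible probes. The members were therefore below the typical eligible probe in the egg and above it 1 stage later, an order that the choice favors. The lowest egg signal that was called well above background was 22.0, and 53 of the members had an egg signal under 2 times that value, which leaves their egg level close to the limit of detection.

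On the normalized scale the differences ranged from 3.53, or 11.6-fold, to 7.18, or 145-fold, with a median of 3.98, or 15.8-fold. Among the members, 103 differed by less than 4 on the log2 scale, 70 by 4 to less than 5, and 27 by 5 or more. There was no step at the limit of the choice: the last 3 probes inside it had differences of 3.54, 3.54 and 3.53, and the first 3 outside it had 3.53, 3.52 and 3.52. Of all eligible probes 17.5% were at least 2-fold higher at the two-cell stage than in the egg and 27.0% were at least 2-fold lower, with a median difference of -0.41. From the two-cell to the 16-cell stage only 0.20% were at least 2-fold higher and 0.22% at least 2-fold lower. The egg array thus stood apart for eligible probes in general. With 1 egg array, a change in RNA and a difference of that array cannot be told apart. A further 3713 probes were well above background at the two-cell stage and not in the egg, so only a lower bound can be given for them. For 98 of these the bound was at least as large as the smallest difference among the members, and the highest bound was at least 448-fold.

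The 10 members with the largest differences came from 8 accessions. Their egg signals were 26.0 to 67.2 and their two-cell signals 4575 to 14456, with differences from 6.24, or 75.8-fold, to 7.18. The member with the largest difference of all had a normalized signal of -4.33 in the egg, 2.85 at the two-cell stage, 2.87 at the 16-cell stage, 2.74 at stage 8, 2.83 at stage 9, 2.93 at stage 10.5, 2.84 at stage 12, 3.19 at stage 15, 3.59 at stage 20, 2.36 at stage 25, 1.10 at stage 30, 0.40 at stage 35 and, in the tadpole of stage 40, -0.37. It thus held a near-constant level from the two-cell stage to stage 12, was highest at stage 20 and lowest among the embryos in the tadpole, where it was still above its egg level. The other probe of its accession was well above background in the egg and at the two-cell stage. That probe had a smaller difference of 3.098 and was not a member, so the largest difference is that of 1 probe and not of the accession.

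The first array that the choice did not use was the 16-cell array, and there all 200 members were at least 2-fold above the egg, as they were at stages 8 and 9. Among all eligible probes the share at least 2-fold above the egg was 19.0% at the 16-cell stage, 20.3% at stage 8 and 20.7% at stage 9, and 18.0% were so on all 3 arrays. Those arrays are compared with the same egg array that chose the members, so a low reading in that 1 array would carry into each of these counts. Among the members, the smallest difference from the egg was 2.99 on the 16-cell array, 2.85 on the stage 8 array and 2.38 on that of stage 9.

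The median normalized signal of the members was -3.64 in the egg and 0.69 at the two-cell stage. On the 16-cell array it was 0.89, on that of stage 8 it was 1.02, and on that of stage 9 it was 1.10, the highest of the 13 arrays. It was then 0.79 at stage 10.5, 0.44 at stage 12, 0.09 at stage 15, 0.11 at stage 20, 0.02 at stage 25, -0.20 at stage 30, -0.25 at stage 35 and, in the tadpole of stage 40, -0.34. The members as a group were thus highest in the blastula and lower than there at every later stage, without coming near the egg level. Over the same arrays the median of all eligible probes was -0.59 in the egg, -0.51 at the two-cell stage, -0.52 at stage 9 and -0.86 at stage 40.

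Ranked among all 43803 probes, the median of the members stood at percentile 50.9 in the egg, 80.5 at the two-cell stage, 83.9 at stage 9 and 71.2 in the tadpole of stage 40. Only 1 member was above the 75th percentile of its array in the egg, against 43.1% of eligible probes. The choice by the egg to two-cell difference favors a low egg and a high two-cell rank, so the values for those arrays are only a description. The count was 139 (69.5%) at the two-cell stage and 155 (77.5%) at stage 9, where 43.1% and 43.0% of eligible probes were. In the tadpole of stage 40 it was 80 (40.0%), close to the 36.9% of eligible probes. The median of the members thus stayed in the upper part of a ranking that includes probes not well above background. By the tadpole the members were little brighter than eligible probes by this count.

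Between the two-cell stage and stage 9 most members, 175 of 200, stayed within 2-fold. Of the 200, 142 were higher at stage 9 than at the two-cell stage, with a median difference of 0.26, and 23 were at least 2-fold higher and 2 at least 2-fold lower. Among all eligible probes 2.24% were at least 2-fold higher and 1.20% at least 2-fold lower over the same interval, with a median of -0.07, so the members were at least 2-fold higher more often (11.5%). The two-cell array is one of those that chose the members and stage 9 lay on another slide, so these counts are given without a test.

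The members drew apart from each other at gastrulation, when many eligible probes also changed. From stage 8 to stage 9, 0.30% of eligible probes rose and 1.31% fell by at least 2-fold. From stage 10.5 to stage 12, 12.9% rose and 17.3% fell, against 8.5% and 26.0% of members. No spread of the eligible probes is given, so the widening is not read as particular to the members. The SD over the 200 members was 1.20 in the egg, 1.22 at the two-cell stage, 1.30 at stage 9 and 1.36 at stage 10.5, and it had widened to 1.88 at stage 12 and 2.14 at stage 15, with 2.12 at stage 40. At stage 9 the middle 50% of the members lay between 0.06 and 2.03, with extremes of -2.07 and 4.99. At stage 40 the middle 50% lay between -1.65 and 0.69, with extremes of -9.19 and 4.78. The probe at the lower extreme was not well above background there. The upper quartile and, by a larger amount, the lower extreme were thus lower in the tadpole than in the blastula.

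All 200 members were still at least 2-fold above the egg at stage 10.5, against 20.5% of eligible probes. The count was 188 at stage 12 and 178 at stage 15, where the eligible shares were 24.0% and 23.7%. From then on it was 175 at stage 20 (22.7% of eligible probes), 171 at stage 25 (23.0%), 172 at stage 30 (23.4%), 173 at stage 35 (23.2%) and, in the tadpole of stage 40, 171 (23.0%). Most of the loss thus fell between stages 10.5 and 15, and the count hardly moved from stage 20 on. With a 4-fold limit, for which no share of the eligible probes is given, 196 members passed at stage 10.5 and 144 at stage 40.

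Few members went back to the egg level from which the choice had set them at least 11.6-fold apart at the two-cell stage. None was at or below it from the two-cell stage to stage 10.5 (0 of 200), 4 were at stage 12 and 11 at stage 15, and the tadpole of stage 40 had 16. In the tadpole 22 members were within 2-fold of the egg, and 7 were at least 2-fold below it. The median difference of eligible probes from the egg was -0.28 at stage 12 and -0.82 at stage 40. These counts use the egg array that chose the members, so they are given as a description. Against the mean of the 16-cell, stage 8 and stage 9 arrays, 30 members were at least 2-fold lower and 7 at least 2-fold higher at stage 10.5, where 7.68% and 4.73% of eligible probes were. At stage 12 the counts were 79 lower and 26 higher (23.6% and 16.8% of eligible probes), and at stage 15 they were 92 and 28 (34.6% and 21.4%). They then changed slowly, to 102 and 21 at stage 20 (39.1% and 20.7%), 103 and 23 at stage 25 (39.5% and 20.4%), 103 and 16 at stage 30 (39.3% and 20.6%), 111 and 18 at stage 35 (40.0% and 20.7%), and 116 and 17 at stage 40 (40.8% and 20.6%). The number of lower members thus grew mainly up to the neurula.

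The design gave 1 comparison with a test in which stages stand in for replicates: the early embryo, before and at the start of the embryo's own transcription, as the 16-cell, stage 8 and stage 9 arrays (3 arrays), against the late embryo, as stages 15 to 40 (6 arrays). The two-cell array was left out of it because it chose the members. The p-values then measure the spread among stages within each period and not the spread among embryos of 1 stage. With limma over all 43803 probes and Benjamini-Hochberg adjustment at 0.05, 114 of the members (57.0%) were lower late and 25 (12.5%) were higher late, while 61 did not pass. Among the eligible probes 42.3% were called lower late and 22.0% higher late, and among all probes 26.7% and 30.1%.

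The median late minus early difference was -1.10 for the members, -0.52 for the eligible probes and 0.18 for all probes. Across the 200 members the two-cell level and the mean early level had a Pearson r of 0.94, a description over probes that share arrays. The choice was made on the egg to two-cell difference and favors a high two-cell level. On that array the median was 0.69 for the members and -0.51 for the eligible probes. The early side of the comparison is thus not independent of the choice. How much of the surplus of lower calls comes from the choice was not tested. With each array scaled to its median, which moves the late minus early median of all probes to -0.76, 155 members were lower and 8 higher late (64.2% and 11.7% of eligible probes), so that 4.91% of the called members were higher rather than 18.0%. The same change of scaling took the share higher late among called probes from 34.2% to 15.4% for the eligible probes and from 53.0% to 30.4% for all probes, which for all probes was 36.7% with quantile normalization and 37.2% with normexp background correction.

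Among the 114 members that fell, the median difference was -2.19. The measured differences ran from -9.39 to -0.56, and the first of these belongs to a probe mostly not well above background on the late arrays, for which only a bound of at least 208-fold holds. Of these, 102 fell by at least 2-fold, 62 by at least 4-fold and 10 by at least 16-fold. They came from 94 accessions. Set against the mean of the early arrays, their median stood at -0.30 at stage 10.5 already, -1.16 at stage 12 and -1.84 at stage 15, and reached -2.33 by the tadpole of stage 40, so the greater share of the difference was present by the neurula. In the tadpole 88 of the 114 were still at least 2-fold above the egg and 15 were at or below it. For these sizes and tadpole counts no share of the eligible probes is given, so they are not read as particular to the members.

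The 25 members that rose had a median difference of 1.40, with a range from 0.49 to 3.32, and came from 23 accessions. Of these, 18 rose by at least 2-fold and 5 by at least 4-fold, with no share of the eligible probes given beside them. Their median above the early mean was 0.27 at stage 10.5, then 1.26 at stage 12 and 1.72 at stage 15, and it was 1.18 in the tadpole of stage 40, so it was greatest in the neurula. All 25 were at least 2-fold above the egg at stage 40, a count that the choice and the call as higher late both favor. That these probes were higher at the two-cell stage than in the egg, and higher again late, follows from how they were chosen and called.

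The early and late periods lay mostly on different slides, which limits the comparison. The egg, two-cell, 16-cell and stage 8 arrays were on slide 1, stages 9 to 15 on slide 2, stages 20 to 35 on slide 3 and stage 40 on slide 4. With the slide as a block, 75 members were lower and 18 higher late (23.7% and 16.1% of eligible probes), an estimate that rests on stages 9 and 15, the only early and late arrays that share a slide. Within that slide, from stage 9 to stage 15, 98 members were at least 2-fold lower and 27 at least 2-fold higher, with a median of -0.96, where 34.7% of eligible probes were lower and 22.1% higher.

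Grouped by size of the late minus early difference alone, 53.5% of the members were at least 2-fold lower late, 74 (37.0%) were within 2-fold, and 19 (9.5%) were at least 2-fold higher. Of the eligible probes 38.7% were in the first of these classes, 41.7% in the second and 19.6% in the third. The median normalized signal of the members that ended lower was -3.40 in the egg, 1.13 at the two-cell stage, 1.42 at stage 9, 0.93 at stage 10.5, 0.03 at stage 12, -0.55 at stage 15 and, in the tadpole of stage 40, -1.33. Members that stayed within 2-fold had medians of -3.78 in the egg, 0.53 at the two-cell stage, 0.66 at stage 9, 0.48 at stage 10.5, 0.69 at stage 12, 0.86 at stage 15 and, in the tadpole of stage 40, 0.36. Members that ended higher had medians of -4.23 in the egg, -0.03 at the two-cell stage, 0.10 at stage 9, 0.84 at stage 10.5, 2.15 at stage 12, 2.29 at stage 15 and, in the tadpole of stage 40, 1.60. Because the classes were cut on late minus early and the two-cell level follows the early one, the order of their early levels is not read. That the medians of the 3 classes moved apart from the early to the late arrays follows from the same cut and is not read either.

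The stage of the highest level was spread over all 12 embryonic stages. It was the two-cell stage for 14 members, the 16-cell stage for 8, stage 8 for 28 and stage 9 for 59, so that 109 of the 200 were highest before gastrulation. Stage 10.5 was the highest for 7 members, stage 12 for 30 and stage 15 for 24. For the remaining 30 members the highest level came between stages 20 and 40, with 9 of them highest at stage 40. The choice kept the egg from being the highest and favored the two-cell stage. No share of the eligible probes is given beside these counts, so they are not read as a trait of the members.

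Under the rule for naming members, 4 probes are described in full, the 2 largest late gains and the 2 largest late losses among those that passed the test. The largest gain was that of accession BC042303 (probe Xl#S13831289_1640), whose processed signal was 37.9 in the egg and 1459 at the two-cell stage, a normalized difference of 4.17, or 18.1-fold. Its normalized signal was -4.63 in the egg, -0.46 at the two-cell stage, -0.54 at the 16-cell stage, -0.50 at stage 8, -0.71 at stage 9, 2.32 at stage 10.5, 2.84 at stage 12, 3.79 at stage 15, 3.67 at stage 20, 2.75 at stage 25, 2.49 at stage 30, 2.05 at stage 35 and, in the tadpole of stage 40, 1.66. It was thus flat through the blastula, higher from stage 10.5 on, with its highest level in the neurula, and its late arrays all lay above its early ones. The late minus early difference was 3.32 (SE 0.47, 3 against 6 arrays), or 9.98-fold, with an adjusted p of 0.000229 in limma. The exact permutation test (two-sided) gave p = 0.0238, the smallest that 3 against 6 allows. The probe was picked for its gain among members called on this same comparison, so the exact test adds no support. The other probe of this accession was not well above background in the egg, which gives a difference of at least 4.86-fold to the two-cell stage, and its late minus early difference was 3.12 with an adjusted p of 0.000502 in limma.

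Accession BJ078462 (probe Xl#S13725750_624) was among the dimmest members at the two-cell stage, with a processed signal of 24.9 in the egg and 619 at the two-cell stage, a difference of 3.54, or 11.7-fold. Its normalized signal was -5.24 in the egg, -1.70 at the two-cell stage, -1.68 at the 16-cell stage, -2.01 at stage 8, -2.07 at stage 9, -1.81 at stage 10.5, -0.88 at stage 12, 0.68 at stage 15, 1.03 at stage 20, 0.86 at stage 25, 1.18 at stage 30, 1.23 at stage 35 and, in the tadpole of stage 40, 0.68. Its gain came later than that of BC042303, between stages 10.5 and 15, and the level then held to the tadpole, without overlap between late and early arrays. It rose by 2.87 (SE 0.21), or 7.29-fold, with an adjusted p of 2.28e-06 in limma. The other probe of the accession lay just outside the limit of the choice, with a difference of 3.50 from the egg to the two-cell stage, and rose by 2.81 from early to late with an adjusted p of 2.8e-06 in limma.

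The largest loss was that of accession CA983224 (probe Xl#S14222952_760), with a processed signal of 218 in the egg and 6272 at the two-cell stage, a difference of 3.76, or 13.5-fold. Its normalized signal was -2.11 in the egg, 1.64 at the two-cell stage, 1.39 at the 16-cell stage, 1.40 at stage 8, 1.63 at stage 9, 0.83 at stage 10.5, -1.99 at stage 12, -5.03 at stage 15, -7.24 at stage 20, -8.67 at stage 25, -8.89 at stage 30, -8.46 at stage 35 and, in the tadpole of stage 40, -9.19. It passed back through its egg level at about stage 12 and was not well above background on 5 of the 6 late arrays, so its late level is a bound. The late arrays all lay below the early ones, with a late minus early difference of -9.39 (SE 0.83) as measured and an adjusted p of 9.44e-06 in limma. Set against the lowest signal well above background on each array where its own was lower, the early level was at least 208-fold higher. The other probe was not well above background in the egg and was at least 38.8-fold higher at the two-cell stage. It was well above background on 0 of the 6 late arrays and was at least 72.4-fold lower late. Its late minus early difference as measured was -7.88, with an adjusted p of 6.63e-07 in limma. That p-value rests on late readings not well above background, and the bound itself was not tested.

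Accession BC073098 (probe Xl#S20755906_2431) had a processed signal of 155 in the egg and 7900 at the two-cell stage, a difference of 4.57, or 23.8-fold. Its normalized signal was -2.60 in the egg, 1.98 at the two-cell stage, 1.80 at the 16-cell stage, 1.17 at stage 8, 1.48 at stage 9, -0.49 at stage 10.5, -3.95 at stage 12, -4.74 at stage 15, -5.54 at stage 20, -6.44 at stage 25, -6.00 at stage 30, -5.63 at stage 35 and, in the tadpole of stage 40, -5.99. It was lower at stage 10.5 than on any earlier embryo array, below its egg level from stage 12 on, and the early and late arrays did not overlap. It fell by 7.20 (SE 0.35), with an adjusted p of 1.83e-07 in limma, and by at least 146-fold when the array of stage 25, where it was not well above background, is set at its bound.

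The 2 probes of BC073098 did not follow each other. The other probe had a normalized signal of 4.94 in the egg, 3.60 at the two-cell stage, 3.76 at the 16-cell stage, 3.48 at stage 8, 3.17 at stage 9, 3.34 at stage 10.5, 3.55 at stage 12, 3.41 at stage 15, 2.68 at stage 20, 2.34 at stage 25, 1.93 at stage 30, 2.49 at stage 35 and, in the tadpole of stage 40, 2.59, with a difference of -1.34 from the egg to the two-cell stage. It was thus highest in the egg and lowest at stage 30. It fell from early to late by 0.89, with an adjusted p of 0.0321 in limma. The course given above for this accession is therefore that of 1 probe, and which transcript each probe measured cannot be told apart without their sequences.

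The members carried 162 accessions, 38 of them with 2 member probes. The 2 egg to two-cell differences of such a pair were a median of 0.24 and at most 1.80 apart on the log2 scale, a gap that the choice of both probes keeps small. The 2 spots of a pair lay a median of 157.5 rows apart on an array of 532 rows. Over the 13 arrays the pairs correlated with a median r of 0.996 and a lowest r of 0.838, as a description of 2 probes on shared arrays, in which the egg to two-cell difference that chose both probes takes part. Their late minus early differences, which the choice did not use, were a median of 0.14 and at most 1.51 apart and had the same sign in 35 of the 38 pairs.

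Another 69 probes, of 68 accessions, share an accession with a member and were not chosen themselves, while 56 accessions had no second probe on the array. Of the 69 probes, 49 were well above background in the egg and at the two-cell stage, and their difference had a median of 2.93 and ranged from -1.34 to 3.50, which the limit of the choice caps. A difference of at least 2-fold upwards was seen in 41 of the 49 and of at least 4-fold in 37, where 17.5% of all eligible probes reached 2-fold, while 6 were within 2-fold and 2 were at least 2-fold lower. The other 20 were not well above background in the egg, with bounds from at least 2.54-fold to at least 136-fold. These values come from the same egg and two-cell arrays that chose the members and are given as a description. Xenopus laevis carries 2 related copies of many genes, and whether a probe binds 1 copy or both cannot be read from the files.

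Few spots of the members carried scanner flags, and no rate over the eligible probes is given beside them. On the egg and two-cell arrays 0 of the 200 were flagged as non-uniform or as outliers, and over all 13 arrays 1 of 2600 spots was non-uniform and 0 were saturated. In all, 196 members were well above background on all 13 arrays. On all 9 arrays of the early and late test, 196 members and 22792 of 25367 eligible probes were. Divided by the middle row and the middle column of the array, 42 members lay in the lower left, 64 in the lower right, 47 in the upper left and 47 in the upper right, where the eligible probes were spread about evenly. Accessions that begin with BC, those of full-length cDNA clones in the public sequence databases, were carried by 98 of the members (49.0%), against 40.0% of the eligible probes and 30.6% of all probes.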

How the data were processed

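Total RNA of 13 samples was labeled with Cy3 and hybridized to one-color Agilent arrays, and the authors extracted the spots with Agilent Feature Extraction 10.7.3.1. The deposited values are the processed signal intensity of each of 45220 spots per array, background-subtracted by that software, and a deposited value table held the same intensity values (587860 of 587860 equal). Here 1417 control spots were left out, log2 was taken of the processed signal, and the 75th percentile of each array was subtracted. Spots flagged as outliers were kept, as the choice of the members did not use these flags. The members and lists were chosen with earlier results of these data known. Early (16-cell, stages 8 and 9) and late (stages 15 to 40) arrays were compared with lmFit and eBayes of limma 3.58.1 in R 4.3.3, with Benjamini-Hochberg adjustment over 43803 probes at 0.05. On simulated data with 200 probes changed by 2 (log2), 47% were recovered and 6 unchanged probes were called. In the data far more probes differed, with 30.1% of all probes called higher and 26.7% lower late. The adjustment was therefore stricter in the simulation, and the 47% does not give the recovery in the data. The simulated arrays also varied independently, with the same spread in both periods, whereas the real stages are ordered in time. The 6 false calls therefore do not give the number in the data. Counts by stage used a 2-fold limit. For a probe not well above background on an array, bounds used the lowest signal well above background there, or its own if higher. The rule for naming took the members with the largest first differences and the largest late gains and losses among those called, of which at most 2 that rose and 2 that fell are named, because the tables used here give no gene for these accessions. Other settings tried were scaling to the array median, quantile normalization, spike-in scaling, normexp (offset 50) on the median spot and background intensity with quantile normalization, filters on dim probes, means per accession, the slide as a block, the two-cell array included, a 4-fold limit, other ways of choosing members, and each array left out in turn. The small number of arrays, 1 per stage, sets the precision.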

Additional observations from a re-analysis of the deposited data

Results flagged for a closer look

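The late arrays, stages 15 to 40, were examined for a single array far from the other 5 in 6 sets of values, the median of the members, the 4 named probes and 1 more member, and 1 set held such an array. By chance about 1 in 20 sets fixed in advance would be picked out, a rate and a critical value that do not apply to the 1 more member. In that member, singled out after its values were seen, the normalized signal at stage 25 was 2.17, against -3.38 at stage 20 and -3.18 at stage 30, and the gap to the nearest other late array was 0.828 of the whole range, above the critical value of 0.625. On the processed scale the signal of 6342 at stage 25 stood between 108 at stage 20 and 170 at stage 30, and the spot at stage 25 was the 1 spot of the members that the scanner software flagged as non-uniform. The other probe of the same accession, also a member and 263 rows away on the array, had 31.5, 30.8 and 60.3 on these arrays. With all 9 arrays the late minus early difference was -5.63 with an adjusted p of 0.00193 in limma. Without stage 25 it was -6.49 with an adjusted p of 4.19e-07, and the other probe gave -7.13 with an adjusted p of 2.82e-07. Over the alternatives the adjusted p of this member ranged from 1.13e-08 to 0.0903, the highest with the slide as a block.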

How the results depend on the processing

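No paired analysis was possible because no stage was measured on more than 1 array. With each array scaled to its median, 8 members rather than 25 were higher late, and with the slide as a block 75 rather than 114 were lower late. The share of members higher among those called was moved only by median scaling by more than 10 percentage points, as given above. Leaving out 1 array at a time gave 20 to 27 members higher and 97 to 121 lower. Of the 25367 eligible probes, 4722 to 6043 were then higher and 9152 to 11768 lower. Of the 139 calls, 122 were kept with median scaling, in which 7 changed sign and 0 were called the opposite way, 136 with quantile normalization, 113 with spike-in scaling, 135 with normexp and 88 with the slide as a block. No share of eligible calls kept is given beside these counts, so they are not read as a trait of the members. The choice of members depended on the processing: 127 of the 200 were chosen again with normexp and quantile normalization, and 63 when probes did not have to be well above background in the egg. It was 165 with quantile normalization, 154 with the 16-cell array in place of the two-cell array, and 200 with median or spike-in scaling, the last pair added after seeing the data. All 200 members were at least 2-fold above the egg on the 16-cell, stage 8 and stage 9 arrays under each scaling, and at stage 40 the count was 171, with 134 under median scaling, 147 under quantile normalization, 193 under spike-in scaling and 137 with normexp. For these other scalings no share of the eligible probes is given. The 4 named probes kept their direction and passed under each alternative that was run for them. The named probes that fell were not covered by the filter for probes well above background on all 9 arrays. Means per accession were not followed for any named probe.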
